A study of Arabidopsis thaliana with 9 samples.

Results

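The genes described here are 10 light signalling genes of Arabidopsis thaliana, picked by their locus IDs from the 33977 genes that the count files list. They are the phytochrome photoreceptor genes PHYA and PHYB, the PHYTOCHROME-INTERACTING FACTOR genes PIF1, PIF3, PIF4, PIF5 and PIF7, and the transcription factor genes HY5, HFR1 and ATHB2. All 10 had enough reads to enter the tests across all genes. The rule that picks them uses the locus ID alone, but the 10 genes and the further gene lists below were chosen with earlier results of these data known. The study sequenced RNA from 9 plant samples in 3 groups of 3, all of the Col-0 accession and all harvested at bolting, when the flowering stem emerges, as aboveground tissue. The first group carries an RNA interference construct against PPD3 and is labelled T+ with a dwarf phenotype. The second carries the same genotype label and has a large phenotype. The third is wild type (WT), with no transgene in its label. Seeds spent 2 days at 4 °C, and plants grew in soil under a 12 h photoperiod at 22 and 20 °C. The sources used here do not give the promoter of the construct, the meaning of T+, the number of independent lines, the number of plants per sample or the hour of harvest. The labels call the samples of a group biological replicates.

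In the TAIR10.1 assembly the receptor genes are PHYA (AT1G09570, chr1:3095160-3100819, minus strand) and PHYB (AT2G18790, chr2:8139756-8144461, plus strand). The PIF genes are PIF1 (AT2G20180, chr2:8704024-8707009, minus strand), PIF3 (AT1G09530, chr1:3075768-3079654, plus strand), PIF4 (AT2G43010, chr2:17886101-17889087, plus strand), PIF5 (AT3G59060, chr3:21827905-21830837, minus strand) and PIF7 (AT5G61270, chr5:24638491-24640765, minus strand). The remaining transcription factor genes are HY5 (AT5G11260, chr5:3593335-3595073, minus strand), HFR1 (AT1G02340, chr1:465616-467880, minus strand) and ATHB2 (AT4G16780, chr4:9449114-9450905, plus strand).

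Phytochromes are red and far-red light receptors that take an active form in red light. In that form they enter the nucleus and bind the PIFs, basic helix-loop-helix proteins that promote stem and petiole elongation and hold back greening, and the bound PIFs are phosphorylated and mostly degraded. HY5 is a basic leucine zipper protein that promotes light responses such as greening and pigment synthesis and is degraded in darkness through the COP1 and SPA ubiquitin ligase. HFR1 is an atypical helix-loop-helix protein that binds PIFs and keeps them off DNA, and ATHB2 is a homeodomain leucine zipper protein whose gene is a classical target of PIFs in shade.

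PIFs are known to bind the G-box, CACGTG, and the PBE-box, CACATG on one strand and CATGTG on the other, and HY5 is known to bind the G-box. These short sequences were looked for on both strands in the 1000 bp before the annotated start of each gene, in the TAIR10.1 assembly with the RefSeq annotation. The nearest match upstream of PIF4, HFR1, HY5, PIF5 and PHYB is printed here. Each runs 5′ to 3′ on the strand of its gene, with the matched box in capitals.
PIF4, chr2:17885574-17885619, plus strand: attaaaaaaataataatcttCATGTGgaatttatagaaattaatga
HFR1, chr1:468268-468313, minus strand: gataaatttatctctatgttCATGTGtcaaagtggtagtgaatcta
HY5, chr5:3595186-3595231, minus strand: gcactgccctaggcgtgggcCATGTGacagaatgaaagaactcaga
PIF5, chr3:21830977-21831022, minus strand: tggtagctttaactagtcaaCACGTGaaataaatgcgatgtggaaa
PHYB, chr2:8139625-8139670, plus strand: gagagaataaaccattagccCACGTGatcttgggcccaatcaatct
These matches lie 507 bp upstream of the annotated start in PIF4, 413 bp in HFR1, 138 bp in HY5, 165 bp in PIF5 and 111 bp in PHYB. PHYB holds another G-box at 146 bp, HFR1 a G-box at 1000 bp and HY5 another PBE-box at 799 bp. PHYA and PIF7 each hold 1 PBE-box, at 753 and 878 bp. No match overlaps another. PIF1, PIF3 and ATHB2 hold neither word within these 1000 bp. Among 27443 protein-coding genes, 14.8% hold a G-box and 37.7% a PBE-box in such a window, so words of this kind are common and a match is a description of the letters alone.

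Each library held between 34660392 and 35217754 counts in genes, so depth was nearly even. Levels are given in CPM, the counts divided by the library's total after adjustment by TMM, edgeR's trimmed-mean normalization. The interference target did not set the groups apart. PPD3, which encodes a protein of the chloroplast thylakoid lumen, had 87.6, 128 and 96.5 CPM in dwarf samples, 86.7, 77.8 and 108 CPM in large samples and 115, 100.2 and 91.1 CPM in WT (log2 change 0.03, adjusted p = 0.934 for dwarf, and -0.17, adjusted p = 0.708 for large against WT). PPD3 lies on chromosome 1 between 25631689 and 30424152, in a stretch raised 1.43 to 1.46 times in dwarf samples 1 and 2. With that rise taken out its log2 change in dwarf plants was -0.32 (adjusted p = 0.333). The level of the target therefore does not check the transgenic labels, and dwarf and large name the libraries labelled so. The 3 leaf markers were abundant, with a summed level of 9122 to 17655 CPM in dwarf samples, 12036 to 18099 in large samples and 14459 to 16792 in WT, while none of 5 root markers passed 0.234 CPM and none of 7 floral markers passed 0.825 CPM in any library. The 3 xylem markers summed to 30.6 to 46.3 CPM in dwarf samples, against 48.9 to 55.9 CPM in WT. Of these, XCP1 alone did not overlap WT (log2 change -0.76, adjusted p = 0.00992 by edgeR's quasi-likelihood test). IRX3 (log2 change -0.26, adjusted p = 0.401) and CESA4 (log2 change -0.29, adjusted p = 0.345) overlapped it. The part of the xylem difference in the results was not tested. In such bulk tissue, fewer cells of a type and less RNA per cell cannot be told apart.

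Whole stretches of chromosome were raised in the transgenic libraries, and 3 of the 10 genes lie in one of them. In dwarf sample 3, the genes on chromosome 1 from 3631 to 11719988 had a median level 1.41 times the WT mean, and this stretch holds PHYA, PIF3 and HFR1. The genes within 500 kb of these 3 had a median of 1.38 times the WT mean in dwarf sample 3 and between 0.952 and 1.01 times in the other 8 libraries. The other 7 genes lie outside every raised stretch. ATHB2 starts at 9449114 on chromosome 4, beyond a stretch that ends at 9033648 and was raised 1.44 to 1.92 times in all 6 transgenic libraries, and its own neighbours stood at 0.954 to 1.01 times the WT mean. Results for PHYA, PIF3 and HFR1 are therefore also given with the median rise of the stretch taken out of each library that carries it.

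Per kilobase of exon, PIF4 was the most abundant of the 10 and HFR1 the least in every group. In RPKM, which is CPM divided by the exon length in kilobases, PIF4 averaged 55.7 ± 1.60 in dwarf samples, 66.8 ± 7.28 in large samples and 73.5 ± 2.88 in WT (SD, n = 3 each). In WT the order after PIF4 was PIF5 at 30.4, PHYB at 20.6, ATHB2 at 15.7, PHYA at 15.1, PIF7 at 11.1, PIF1 at 10.1, PIF3 at 6.25, HY5 at 5.84 and HFR1 at 2.10 RPKM. The WT values of ATHB2 and PHYA overlapped, as did those of PIF3 and HY5, and every other pair of neighbours in this order was separated in WT. In dwarf samples the mean of HY5, 8.39 ± 2.55 RPKM, stood above those of PIF3, 5.97 ± 2.01, and PIF1, 7.25 ± 2.11, with overlapping libraries.

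**Figure D1:**
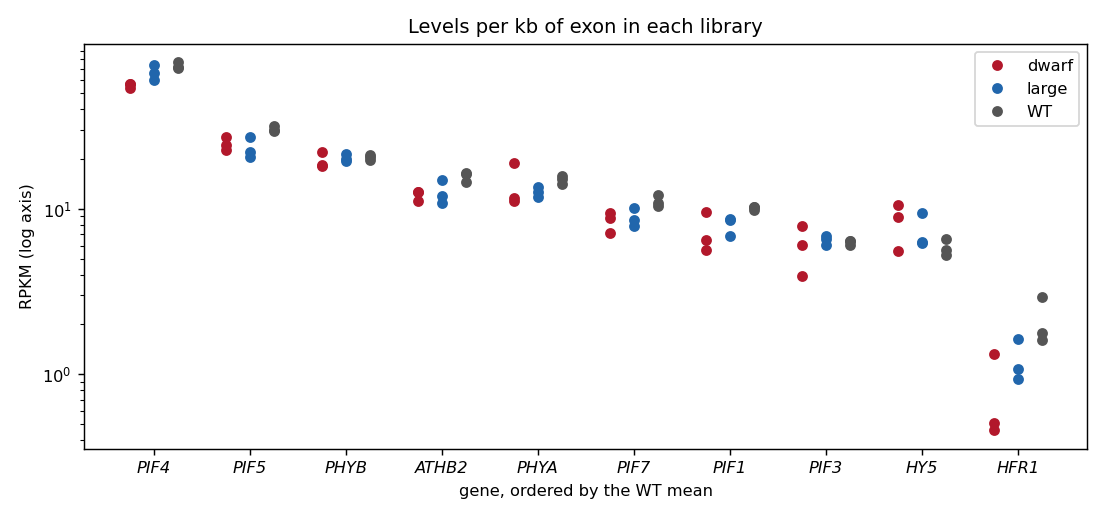
Level per kilobase of exon (RPKM, log axis) of the 10 genes in the 3 groups, with 1 point per library. PIF4 lies at the top in every library, at 53.8 to 76.8 RPKM, and HFR1 at the bottom, at 0.458 to 2.92 RPKM.

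The levels of the 5 PIF genes summed to 102, 94.0 and 110.3 RPKM in dwarf samples, 126, 102 and 114 RPKM in large samples and 129, 135 and 129.6 RPKM in WT. Every transgenic library thus lay below every WT library in the sum. PIF4 supplied between 51.4% and 59.1% of this sum in each of the 9 libraries.

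Between dwarf and WT plants, 1 of the 10 genes passed the test across all genes. PIF4, the PIF best known for growth in warmth and shade, fell to 75.8% of its WT level. At an adjusted p under 0.05, 8.76% of the 19870 genes tested were called in this comparison, 6.54% higher and 2.22% lower in dwarf plants, so a count of 1 in 10 is near this background. At an unadjusted p under 0.05 there were 6 of the 10, against 26.2% of all genes. DESeq2 called 2, HFR1 and PIF4, against 16.0% of all genes, and limma voom with quality weights called 8, all but PHYB and ATHB2, against 23.3% of all genes. The fold changes of the 10 lay lower than those of genes at large, with a median log2 change of -0.34, against 0.05 over all genes tested, and 9 of 10 were negative. In 6 of the 10 every dwarf library lay below every WT library, where 12.2% of all genes did so. Because the 10 were chosen with earlier results known, these contrasts with all genes are a description and not a test.

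PIF4 had 147, 139.8 and 147 CPM in dwarf samples, against 188, 199.5 and 186 CPM in WT. The 3 dwarf libraries lay close together and all below the WT libraries. The log2 change was -0.40 (SE 0.10, 95% interval -0.62 to -0.18, adjusted p = 0.0386 by edgeR's quasi-likelihood test with Benjamini-Hochberg adjustment). The sign was the same in every alternative, with log2 changes between -0.47 and -0.37. The call rests on all groups: the adjusted p was 0.0648 without dwarf sample 1, 0.0991 without dwarf sample 2, 0.0631 without large sample 3, and 0.118, 0.142 and 0.0886 without WT samples 1, 2 and 3. It was 0.0640 in a fit of these 2 groups alone and ran from 0.000699 to 0.142 over all alternatives.

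**Figure D2:**
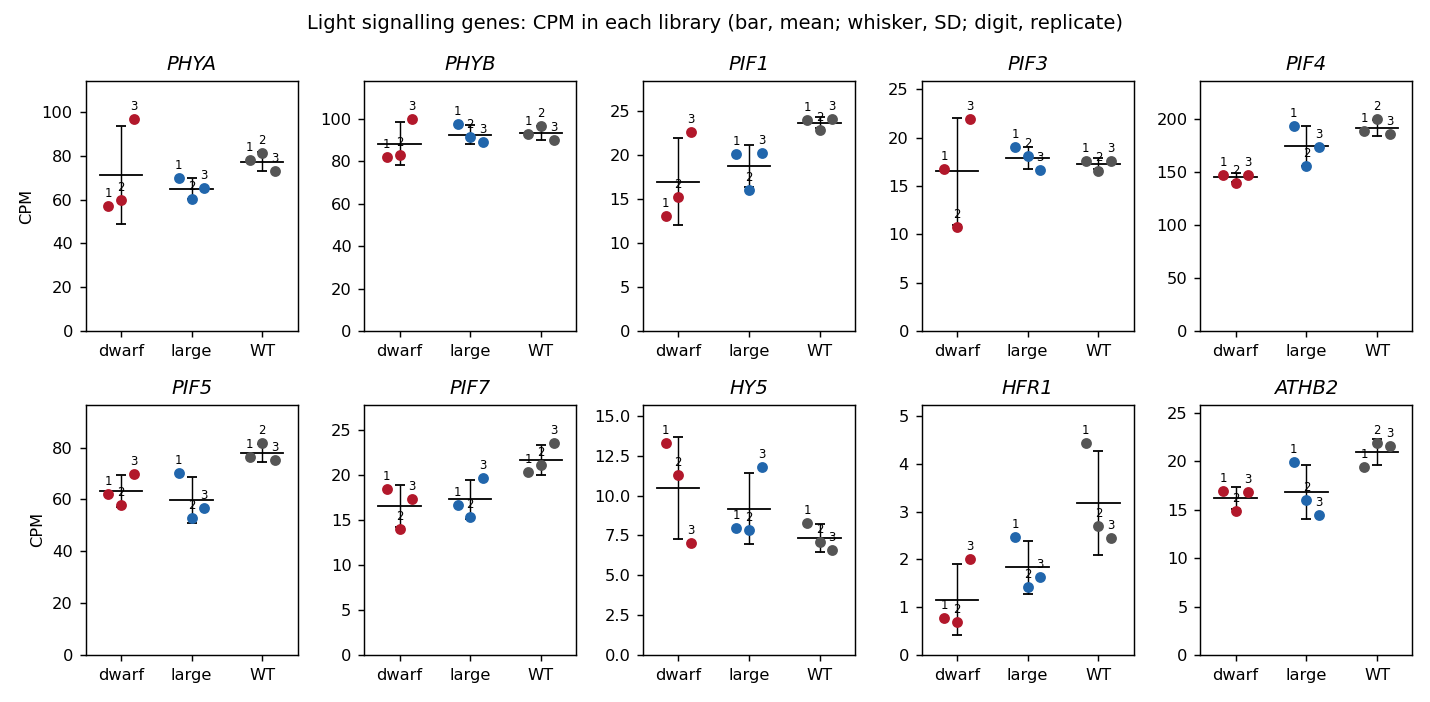
CPM of each of the 10 genes in the 9 libraries, by group, with 1 point per library and a bar for the group mean ± SD (n = 3). The dwarf and WT points do not overlap for PIF1, PIF4, PIF5, PIF7, HFR1 and ATHB2.

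Among the other PIF genes none passed the test, though 3 of these 4 had no overlap between the groups. PIF1, which holds back seed germination and greening in the dark, had 13.1, 15.3 and 22.6 CPM in dwarf samples, against 24.0, 22.9 and 24.1 CPM in WT. Dwarf samples 1 and 2 were far below WT and dwarf sample 3 just below it. The log2 change was -0.48 (SE 0.19, 95% interval -0.90 to -0.05, adjusted p = 0.146). PIF1 shares 5.72% of its exon length with the neighbouring AT2G20170, and 6.97% of its 50-base exon words occur more than once in the genome.

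PIF5, the closest relative of PIF4 and like it a promoter of elongation and leaf ageing, had 62.0, 57.8 and 69.7 CPM in dwarf samples, against 76.3, 81.8 and 75.2 CPM in WT. All dwarf values were lower than all WT values, with dwarf sample 3 the nearest (log2 change -0.30, SE 0.12, 95% interval -0.57 to -0.03, adjusted p = 0.148). PIF7, whose protein acts in shade and is stable in light, had 18.5, 14.0 and 17.3 CPM in dwarf samples, against 20.4, 21.1 and 23.6 CPM in WT. The groups were apart again, by a narrow margin for dwarf sample 1 (log2 change -0.38, SE 0.13, adjusted p = 0.110). A share of 16.3% of the PIF7 exon length overlaps AT5G61260. PIF3, the first member of the family to be described, had 16.8, 10.8 and 21.9 CPM in dwarf samples and 17.6, 16.6 and 17.6 CPM in WT. Its dwarf values fell on both sides of WT, with the highest in dwarf sample 3, whose chromosome 1 stretch was raised. The log2 change was -0.07 (SE 0.21, 95% interval -0.54 to 0.41, adjusted p = 0.876) as counted and -0.26 (adjusted p = 0.320) with the rise of the stretch taken out.

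The phytochrome genes did not pass the test. PHYA, which encodes the light-labile receptor of far-red light, had 57.0, 59.6 and 96.6 CPM in dwarf samples and 77.9, 81.2 and 72.8 CPM in WT. Dwarf samples 1 and 2 lay below all WT samples and dwarf sample 3 above them. Its log2 change of -0.12 (SE 0.19, 95% interval -0.54 to 0.30, adjusted p = 0.722) became -0.33 (adjusted p = 0.0821) with the rise of the stretch taken out, where dwarf sample 3 stood at 68.5 CPM. PHYB, the main receptor of red light in green plants, had 81.9, 82.8 and 99.7 CPM in dwarf samples and 92.8, 96.5 and 89.9 CPM in WT. The same pair of dwarf samples was lowest, in a gene outside the raised stretches, and the 95% interval of its log2 change ran from -0.30 to 0.14 (log2 change -0.08, adjusted p = 0.646).

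HFR1 had the greatest distance from WT of the 10 genes and the lowest counts. It had 0.768, 0.697 and 2.01 CPM in dwarf samples, from 28, 25 and 65 counts, against 4.44, 2.69 and 2.45 CPM in WT, from 150, 92 and 86 counts. Every dwarf library was below every WT library, with dwarf sample 3 close to the lowest WT value. The mean level in dwarf samples was 36.2% of that in WT (log2 change -1.47, SE 0.44, 95% interval -2.47 to -0.47), and the adjusted p of 0.0726 missed the threshold. Without dwarf sample 3 the log2 change was -2.12 and passed (adjusted p = 0.00614), in a fit that called 22.3% of all genes. With any other 1 library left out it lay between -1.63 and -1.16 and did not pass, and the adjusted p ran from 0.00614 to 0.238 over all alternatives. With the rise of the chromosome 1 stretch taken out, dwarf sample 3 stood at 1.42 CPM, the log2 change was -1.71 and the adjusted p was 0.0380.

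HY5 was the 1 gene of the 10 with a positive change in dwarf plants. It had 13.3, 11.3 and 7.03 CPM in dwarf samples and 8.28, 7.11 and 6.60 CPM in WT. Dwarf samples 1 and 2 lay above every WT sample and dwarf sample 3 within the WT range (log2 change 0.52, SE 0.25, 95% interval -0.04 to 1.08, adjusted p = 0.219). ATHB2 had 16.9, 14.9 and 16.8 CPM in dwarf samples, against 19.4, 21.9 and 21.6 CPM in WT. Its groups did not overlap (log2 change -0.37, SE 0.13, 95% interval -0.66 to -0.09), and its adjusted p was 0.102.

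**Figure D3:**
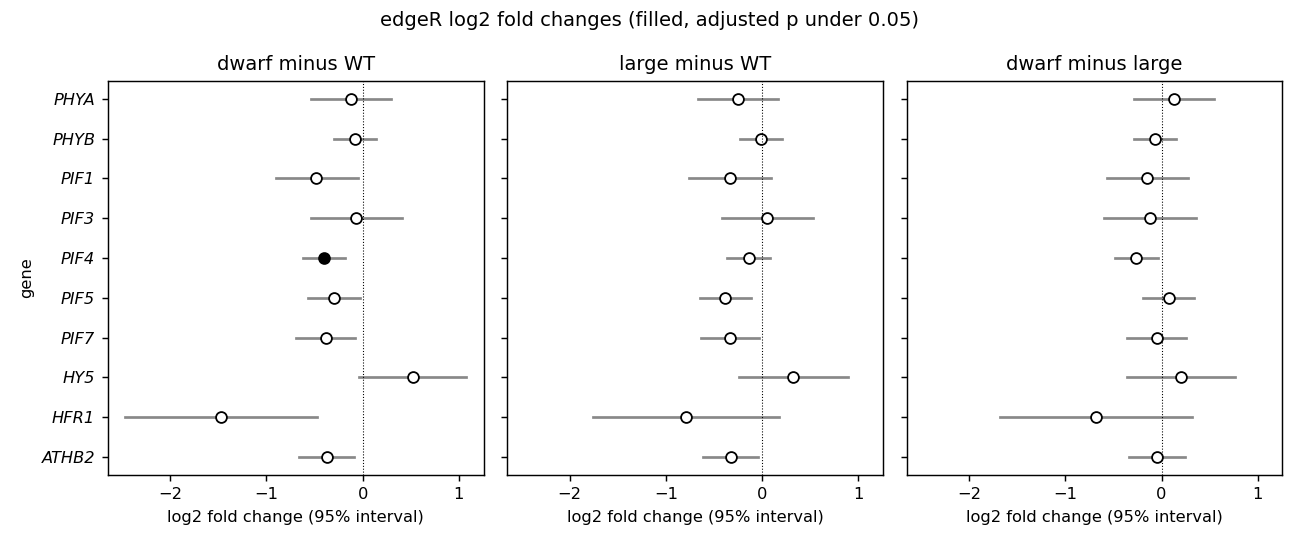
Log2 fold change of each of the 10 genes with its 95% interval, for dwarf against WT, large against WT and dwarf against large (edgeR, n = 3 per group; filled, adjusted p under 0.05). The dwarf against WT change of PIF4, -0.40, is the 1 call, and HFR1 has the widest intervals.

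The dwarf samples were unlike each other in these genes. Samples 1 and 2 shared low PHYA, PHYB, PIF1 and HFR1 and high HY5. Sample 3 was nearer to WT in PHYB, PIF1, HFR1 and HY5, and above every WT library in PHYA and PHYB. With the rise of its chromosome 1 stretch taken out, its PHYA stood at 68.5 CPM, below every WT library. The number of HY5 counts per 100 PIF4 counts, a ratio that no scaling of the library affects, was 9.06, 8.05 and 4.78 in dwarf samples, 4.12, 5.05 and 6.80 in large samples and 4.41, 3.56 and 3.55 in WT. The ratio was chosen after the values were seen, and all 3 dwarf values lay above all WT values. In a fit without dwarf sample 3, 5 of the 10 genes were called against WT, with HFR1, PHYA, PIF1 and PIF4 lower and HY5 higher, while 22.3% of all genes tested were called in that fit. Which of the dwarf samples is typical of the phenotype was not tested.

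**Figure D4:**
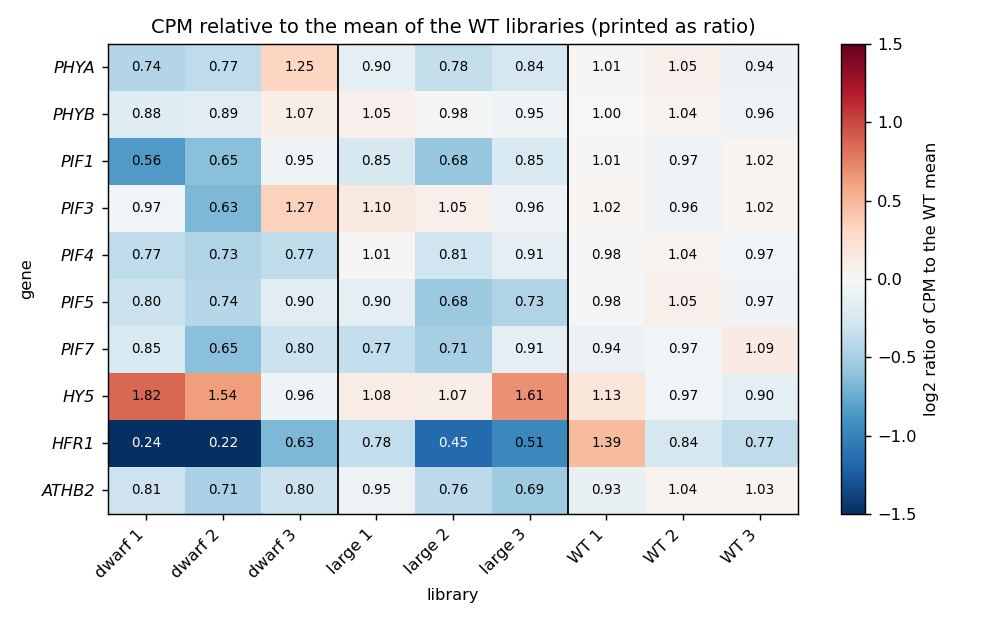
CPM of each of the 10 genes (rows) in each of the 9 libraries (columns) relative to the mean of the WT libraries, with the ratio printed in each cell and its log2 value as colour, which saturates at -1.5 and 1.5. Dwarf samples 1 and 2 are lower than dwarf sample 3 in PHYA, PHYB, PIF1 and HFR1 and higher than it in HY5.

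Between large and WT plants, 0 of the 10 genes passed edgeR's quasi-likelihood test at an adjusted p under 0.05, where 4.22% of all genes tested did, 3.89% higher and 0.327% lower. At an unadjusted p under 0.05 there were 3, PIF5, PIF7 and ATHB2, against 18.7% of all genes. DESeq2 called 1, PIF5, and limma voom called 2, PIF1 and PIF7, against 9.22% and 21.1% of all genes by the same tools. The median log2 change of the 10 was -0.29, against 0.01 over all genes, and 8 of 10 were negative. In 4 of the 10 all large libraries lay below all WT libraries, as in 14.0% of all genes.

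PIF5 had 70.0, 53.0 and 56.8 CPM in large samples, against 75.2 to 81.8 CPM in WT. All 3 large samples were below WT (log2 change -0.38, SE 0.12, 95% interval -0.64 to -0.11, adjusted p = 0.118), so PIF5 lay below WT in all 6 transgenic libraries. PIF7 had 16.7, 15.4 and 19.7 CPM in large samples, against 20.4 to 23.6 CPM in WT, and PIF1 had 20.1, 16.0 and 20.3 CPM, against 22.9 to 24.1 CPM in WT. Both were also below WT in all 6 transgenic libraries, with log2 changes in large samples of -0.33 each (adjusted p = 0.225 for PIF7 and 0.406 for PIF1). The share of all genes below WT in all 6 was not computed. By group, 12.2% were so in dwarf samples and 14.0% in large samples. PHYA had 69.6, 60.2 and 65.1 CPM in large samples, all below the 72.8 to 81.2 CPM of WT, with a log2 change of -0.25 (adjusted p = 0.564).

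PIF4 had 193, 155 and 173 CPM in large samples, which overlapped the 186 to 199.5 CPM of WT (log2 change -0.14, 95% interval -0.36 to 0.08, adjusted p = 0.539). ATHB2 had 19.9, 16.0 and 14.5 CPM in large samples and overlapped WT in sample 1 alone (log2 change -0.32, adjusted p = 0.208). HFR1 had 2.47, 1.42 and 1.64 CPM in large samples, with sample 1 level with the lowest WT values (log2 change -0.79, 95% interval -1.76 to 0.18, adjusted p = 0.385). HY5 had 7.93, 7.83 and 11.8 CPM in large samples, of which sample 3 alone was above WT (log2 change 0.32, adjusted p = 0.579). PHYB and PIF3 gave the narrowest differences, with log2 changes of -0.01 (95% interval -0.23 to 0.21) and 0.05 (95% interval -0.42 to 0.53), and their libraries overlapped those of WT.

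Between dwarf and large plants, which share the genotype label and differ in phenotype, edgeR's test called 0 of the 10 genes, where 0.649% of all genes tested were called, 0.272% higher and 0.377% lower. DESeq2 also called 0, limma voom called 2, PIF3 and PIF4, and 1 gene, PIF4, had an unadjusted p under 0.05 in edgeR's test. These compare with 8.59%, 19.0% and 19.9% of all genes by the same rules. PIF4 was the 1 gene whose groups did not overlap, at 139.8 to 147 CPM in dwarf samples, against 155 to 193 CPM in large samples, and 11.2% of all genes were lower and 8.79% higher without overlap. Its log2 change was -0.26 (SE 0.10, 95% interval -0.48 to -0.04, adjusted p = 0.185). HFR1 had 2 dwarf samples below all large samples and the other within their range, with a log2 change of -0.68 (95% interval -1.68 to 0.32, adjusted p = 0.423). Without dwarf sample 3, the log2 change of HFR1 was -1.33 and it was called (adjusted p = 0.0439, against 0.0439 to 0.744 over all alternatives), in a fit that called 16.1% of all genes tested. For the other 8 genes the log2 change lay between -0.15 and 0.20 with overlapping libraries, and the 95% intervals reached at most 0.76 in size. Dwarf and large plants were each set against the same WT samples, so the like signs of those comparisons are not independent.

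The genes whose level followed that of PIF4 most closely were looked for among the 14681 genes that averaged 5 CPM or more, by Pearson's r of log2 CPM over the 9 libraries. They were PLC2, a phosphoinositide-specific phospholipase C gene, with r = 0.989, AT1G61000 with r = 0.988, and PUB9, a U-box protein gene, with r = 0.979. PLC2 averaged 239 ± 3.02 CPM in dwarf samples, 279 ± 27.2 CPM in large samples and 299.5 ± 2.75 CPM in WT, the same order of groups as PIF4. PUB9 averaged 38.1 ± 2.18, 54.0 ± 11.1 and 64.6 ± 1.36 CPM in these groups and fell in dwarf plants against WT (log2 change -0.76, adjusted p = 0.0133). AT1G61000 averaged 5.93 ± 0.149, 7.01 ± 0.587 and 7.72 ± 0.391 CPM. The highest r among so many genes is high by selection, and the 9 points share their groups and library totals. As these genes were picked for likeness to PIF4, their order of groups and the fall of PUB9 are not separate findings.

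Around these 10 genes, a list of 62 other light signalling genes was read, of which 59 were tested. Against WT, dwarf plants had 8 of the 59 higher and 3 lower, beside 6.54% and 2.22% of all genes. Of the 8, the blue light receptor gene CRY1, the phytochrome A pathway gene FAR1, the genes SPA2, DET1 and DDB1A for components of ubiquitin ligases and the early light-induced gene ELIP2 lie in the raised stretch of chromosome 4, whose genes stood 1.44 to 1.92 times the WT mean in all 6 transgenic libraries. With that rise taken out, none of these 6 passed the test, at log2 changes of -0.14 for CRY1, -0.21 for FAR1, 0.03 for SPA2, 0.21 for DET1, 0.09 for DDB1A and 1.56 for ELIP2. The 2 others were ATHB4, a relative of ATHB2, with 1.37, 1.11 and 0.555 CPM in dwarf samples, against 0.355, 0.292 and 0.313 CPM in WT (log2 change 1.66, adjusted p = 0.0254), and ELIP1, a thylakoid protein gene induced by strong light, with 4.56, 4.85 and 4.32 CPM in dwarf samples, against 2.31, 2.63 and 2.11 CPM in WT (log2 change 0.96, adjusted p = 0.0139). With the rises taken out, 3 of the 59 were called, beside 4.31% of all genes: ATHB4 and ELIP1 again, and CKX5. CKX5, a cytokinin oxidase gene and PIF target named after its values were seen, fell by 1.14 on the log2 scale in that fit (adjusted p = 0.0472). As counted its log2 change was -0.75 (adjusted p = 0.152), and other annotated genes overlap 28.8% of its exon length. With PIF4 there were 12 calls as counted, and fits that left out 1 library gave between 1, without WT sample 1 or WT sample 2, and 26, without dwarf sample 3. Of all genes, 1.32% and 1.45% were called without WT samples 1 and 2, and 22.3% without dwarf sample 3.

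The 3 genes that fell in dwarf plants encode helix-loop-helix proteins related to the PIFs or a phototropin partner. PIL2, a PIF relative, had 2.28, 2.81 and 2.25 CPM in dwarf samples, against 4.79, 6.03 and 5.43 CPM in WT (log2 change -1.14, adjusted p = 0.0406). A share of 88.9% of the PIL2 exon length overlaps AT3G62080 and AT3G09745, so how far its counts come from PIL2 is not known. PAR1, an atypical helix-loop-helix protein that like HFR1 restrains PIFs, had 1.02, 1.53 and 1.76 CPM in dwarf samples, against 2.69, 2.60 and 2.84 CPM in WT (log2 change -0.92, adjusted p = 0.0392). NPH3, the partner of phototropins in bending to light, had 48.9, 55.7 and 60.6 CPM in dwarf samples, against 76.3, 81.5 and 72.8 CPM in WT (log2 change -0.48, adjusted p = 0.0448). All 3 passed narrowly, and with the chromosome rises taken out the adjusted p was 0.0566 for PIL2, 0.0541 for PAR1 and 0.0573 for NPH3.

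**Figure D5:**
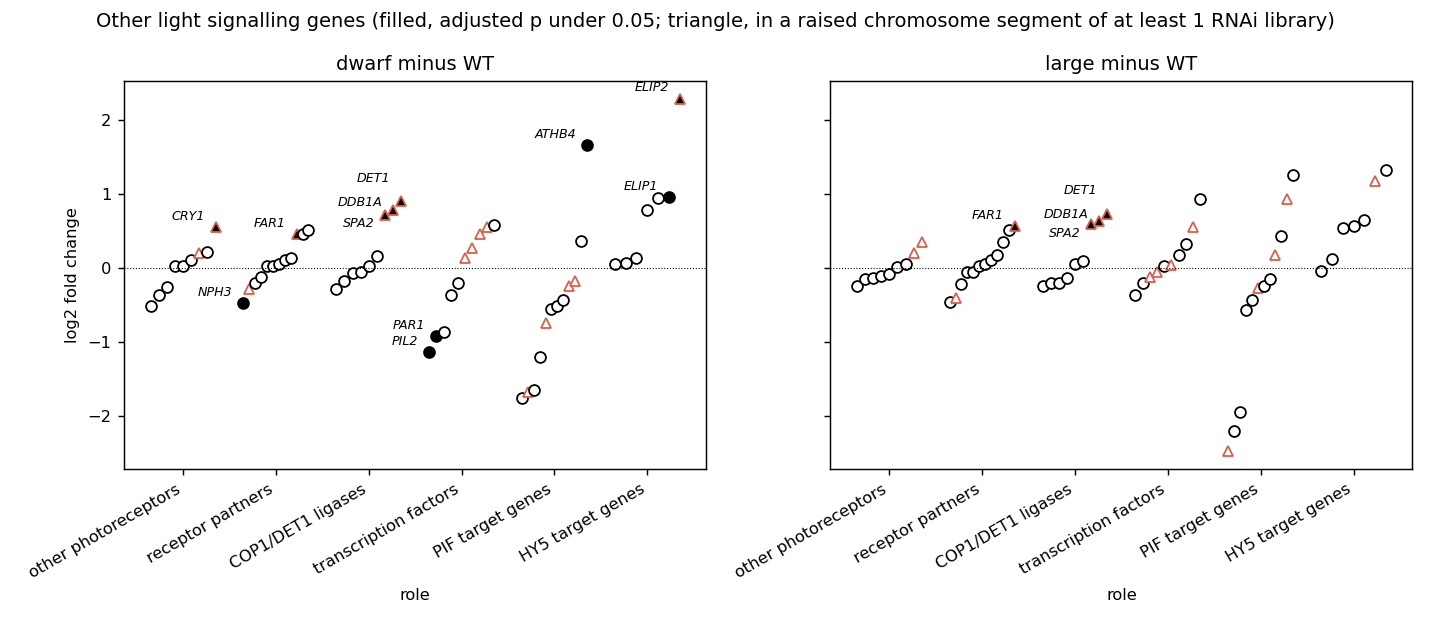
Log2 fold change of the other light signalling genes by role class, for dwarf against WT and large against WT, with 1 point per gene, filled at an adjusted p under 0.05 and a triangle where the gene lies in a raised chromosome stretch of at least 1 transgenic library. Of the 8 filled points above 0 in dwarf plants, 6 are triangles.

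Known targets of the 10 proteins were read as separate classes. Of 12 known PIF targets, 10 had a negative log2 change in dwarf plants against WT, with a median of -0.54, and 8 in large plants, with a median of -0.26. The 1 target called in dwarf plants was ATHB4, which rose, beside 8.76% of all genes called in either direction. In large samples ATHB4 was also above WT, at 0.796, 0.766 and 0.76 CPM, against 0.355, 0.292 and 0.313 CPM. It did not pass edgeR's test there (log2 change 1.26, adjusted p = 0.0887). IAA29, an auxin response gene, had 0.604, 1.87 and 4.29 CPM in dwarf samples and 2.79, 1.42 and 1.67 CPM in large samples, against 7.04, 5.82 and 9.84 CPM in WT. All 6 transgenic libraries were below WT for IAA29, and the share of all genes for which this holds was not computed. Neither test of IAA29 passed (log2 change -1.76, adjusted p = 0.0911 in dwarf, and -1.95, adjusted p = 0.0992 in large plants). Of 7 known HY5 targets, 7 had a positive log2 change in dwarf plants, with a median of 0.79, and 6 in large plants, with a median of 0.57. The smallest changes in dwarf plants were 0.06, 0.07 and 0.14, and each of these was negative in some alternative. The gene at the median of 0.79 was not called by edgeR's test (adjusted p = 0.228). Of these 7, ELIP1 and ELIP2 were called in dwarf plants, beside 8.76% of all genes, and ELIP2 was not called with the chromosome 4 rise taken out (adjusted p = 0.0680). In large plants edgeR's test called 0 of the 7, beside 4.22% of all genes, and 4 had an unadjusted p under 0.05, beside 18.7% of all genes.

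In large plants against WT, 4 of the 59 genes rose and 0 fell, beside 3.89% and 0.327% of all genes. They were DDB1A, DET1, SPA2 and FAR1, at log2 changes of 0.63, 0.73, 0.59 and 0.57, and all 4 lie in the raised stretch of chromosome 4 and none passed with its rise taken out. Fits that left out 1 library gave between 0, as without any 1 of the large samples, and 7, without dwarf sample 3. Of all genes, 0.263% to 0.773% were called without 1 of the large samples, and 7.95% without dwarf sample 3. Between dwarf and large plants 0 of the 59 passed edgeR's test, with 13 at an unadjusted p under 0.05, while DESeq2 called 6. Of all genes, 19.9% had such a p and DESeq2 called 8.59%, so these counts are near the background. The smallest p belonged to PIL1, a shade marker and PIF relative, with 0.906, 1.03 and 1.20 CPM in dwarf samples, against 4.55, 4.43 and 1.96 CPM in large samples (log2 change -1.80, adjusted p = 0.0511). PIL2, with the same limit from its overlap of 88.9%, came next. It had 2.28, 2.81 and 2.25 CPM in dwarf samples, against 8.53, 7.85 and 3.83 CPM in large samples (log2 change -1.46, adjusted p = 0.0558). PAR1 followed (log2 change -1.09, adjusted p = 0.063), and then HYH, the close relative of HY5. HYH had 5.76, 4.88 and 4.23 CPM in dwarf samples, against 2.39, 3.34 and 2.89 CPM in large samples (log2 change 0.79, adjusted p = 0.0725).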

How the data were processed

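RNA of 9 libraries, 3 per group, was sequenced as paired reads of 100 bp. The submitters' processing notes name Trim Galore (0.4.1), STAR (2.7.0a) and the build TAIR10. The sources used here do not say how reads were counted, with which annotation and strand setting. The counts keep ambiguous reads in a line of their own, but which reads of overlapping genes went there is not known. The authors deposited whole-number counts of reads per gene for each library, with no normalization. Lines that name no gene were left out: reads outside genes held 0.642 to 0.900% and ambiguous reads 0.228 to 0.309%.

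Positions, exon lengths and symbols came from the RefSeq annotation of TAIR10.1, to which 32547 of 33977 IDs matched. Of 66 pathway entries, 4 whose symbol that annotation does not give were left out (1 of them, AT3G44450, fell in large plants, with a log2 change of -0.61 and an adjusted p of 0.0316). Counts were normalized by TMM, filtered with filterByExpr and tested with edgeR 4.0.16 (R 4.3.3) by its quasi-likelihood test on all 9 libraries, 3 groups and no block. Adjusted p-values are Benjamini-Hochberg values over the 19870 genes tested, and intervals are at 95%. The procedure was tested on simulated counts. Raised chromosome stretches were found by splitting each library's log2 ratios to the WT mean along a chromosome, over genes of at least 5 CPM, into stretches of at least 50 genes, and calling those with a median above 0.3 raised.

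The naming rule takes all 10 genes and every called gene of the pathway list, and allows, but does not require, naming the 2 genes not called with the smallest p in each role class. Of those, IAA29, PIL1, PIL2 and HYH are given. The 10 genes and the lists were chosen with earlier results of these data known. Deviations of same-numbered libraries from their group means had correlations between -0.24 and 0.43, the highest for sample 3 of dwarf and large. They did not deviate together throughout, so the numbers were not used as pairs. Alternatives were other size factors and filters, DESeq2 1.42.0, limma 3.58.1 voom with quality weights, fits of 2 groups, a replicate block, each library left out, and the rises of chromosome stretches taken out. Whether a sample is 1 plant or a pool is not stated, and p-values measure the spread between these samples.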

Additional observations from a re-analysis of the deposited data

How the results depend on the processing

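The combined count of called genes, members and pathway list together, was 12 for dwarf against WT, 4 for large against WT and 0 for dwarf against large. Of all genes, 8.76%, 4.22% and 0.649% were called in these comparisons. Dwarf against WT gave 3 in a fit of these 2 groups alone, 19 by DESeq2, 30 by limma voom, 5 with the chromosome rises taken out and 1 to 26 with 1 library left out. The shares of all genes called moved too, at 2.39%, 16.0%, 23.3% and 4.31%, and 1.32% to 22.3% with 1 library left out. The 26 came without dwarf sample 3, and the lowest values without WT samples 1 or 2 (1 each), WT sample 3 (2), dwarf sample 1 (5), large sample 1 (6) and dwarf sample 2 (7). Large against WT gave 10, 7, 19 and 0 under the same 4 alternatives and 0 to 7 with 1 library left out: 0 without any 1 of the large samples or WT samples 1 or 2, 2 without WT sample 3 and 7 without dwarf sample 3. The shares of all genes called were 11.3%, 9.22%, 21.1% and 1.62%, and 0.0447% to 7.95% with 1 library left out. Dwarf against large gave 6 by DESeq2, 11 by limma voom, 2 with upper-quartile factors, 1 with no filter on low counts, 1 with a filter of at least 1 CPM and 0 to 11 with 1 library left out, the 11 without dwarf sample 3. The shares of all genes called were 8.59%, 19.0%, 0.926%, 0.601% and 0.8%, and 16.1% without dwarf sample 3. With a replicate block the counts were 10, 3 and 0, beside 6.36%, 3.11% and 0.0% of all genes. The adjusted p of PIF4 in dwarf against WT was 0.0683 in that fit. All sign changes were of differences that missed the threshold. PHYB in large against WT was 0.02 by voom. PHYA in dwarf against large was -0.13 by voom and -0.07 with the rises taken out, and PIF5 was -0.11 by voom. With 1 library left out, dwarf against WT ran from -0.41 to 0.01 for PHYA and -0.32 to 0.16 for PIF3. Large against WT ran from -0.07 to 0.02 for PHYB and -0.01 to 0.10 for PIF3. Dwarf against large ran from -0.16 to 0.27 for PHYA, -0.40 to 0.01 for PIF1, -0.38 to 0.11 for PIF3, -0.01 to 0.19 for PIF5, -0.14 to 0.05 for PIF7, -0.0025 to 0.42 for HY5 and -0.15 to 0.08 for ATHB2. With 3 libraries per group and 25 to 150 counts for HFR1, its interval is wide.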
